A study of Homo sapiens with 12 samples.

Results

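MYC, its dimerization partner MAX and the other transcription factors of the MAX network were followed in MOLM-13, a human cell line established from AML that bears the FLT3-ITD mutation. The 10 genes were taken by symbol from a count table of 57353 genes: MYC, MAX, MXD1, MXD3, MXD4, MXI1, MNT, MGA, MLX and MLXIP. There were 12 RNA-seq libraries, 3 replicates in each of 4 groups, harvested after 15 hr. Cells of WT label were given vehicle or 3 nM quizartinib (AC220), an inhibitor of the FLT3 kinase. Their medium was either regular RPMI or hBMSC-CM, a mixture of RPMI with medium taken from HS-5 cells, a line of human bone marrow stroma. All groups came from 1 cell line. The study calls its replicates biological and the labels give no further detail of how the cultures were kept apart, so the p-values speak for the spread between these samples.

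MYC and MAX form a dimer that binds the E-box sequence and activates transcription of genes for growth, ribosome production and metabolism. MXD1, MXD3, MXD4, MXI1 and MNT compete for MAX and for the same sites but recruit SIN3 corepressors, and MGA brings MAX into a polycomb-like repressor complex. MLX pairs with MLXIP, a glucose-sensing activator also called MondoA, and links this arm to the network through MNT and some of the MXD proteins. In FLT3-ITD leukemia, MYC lies downstream of the receptor.

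The network binds E-boxes and some of its own genes carry the motif, so the windows around each match are shown here. Promoters from 250 bases before to 50 after the start were available from RefSeq (GRCh38.p14) as 14 entries for 9 of the 10 genes. The E-box CACGTG, which reads the same on both strands, was found in 3 entries. It was found in 7.26% of all 35116 promoters of that length. The motif is in capitals and the strand is that of the gene.
MXD4 (chr4:2262300-2262359, minus strand): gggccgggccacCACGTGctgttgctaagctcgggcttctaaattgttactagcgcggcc
MNT (chr17:2401221-2401280, minus strand): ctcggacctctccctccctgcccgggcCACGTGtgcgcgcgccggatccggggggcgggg
MLX (chr17:42567023-42567082, plus strand): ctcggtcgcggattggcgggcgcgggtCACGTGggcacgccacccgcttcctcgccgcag
The motif began at position -238 for MXD4, -193 for MNT and -50 for MLX, counted from the start of the promoter's transcript. A match is only a description of these letters. A forkhead site, GTAAACA on either strand, was found in 2 of the 3 MXI1 entries, at -151 and -2, and in 3.42% of all promoters. The E2F sites TTTGGCGC or TTTCCCGC were found in 1 MGA entry and in 2.27% of all promoters.

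Levels are given as CPM, the count as a share of its library after scaling by edgeR's TMM factors. They are shares of a library, so a change in total RNA per cell is not seen, and in bulk RNA fewer cells with a transcript and less of it per cell cannot be told apart. The library totals lay between 19966546 and 31546104 counts. Genes with a mean raw count and a mean CPM of at least 1 were tested, 12998 in all, and 9 of the 10 members passed; MGA did not. All 10 markers of myeloid leukemia passed the filter. Of 9 stromal markers, 5 were at 0 in every library and the sum of all 9 was 2.70 to 3.20 CPM with vehicle, 10.5 to 12.5 CPM with quizartinib in RPMI and 5.82 to 6.56 CPM with quizartinib in hBMSC-CM. The share of mitochondrial counts moved with the groups, at 0.683 to 0.790% with vehicle and 1.02 to 1.10% with quizartinib in RPMI, and at 0.458 to 0.613% and 0.683 to 0.947% in hBMSC-CM. The part of these shares in the results was not tested.

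Much of the transcriptome moved, so each count of members is read against the share of all tested genes that were called. Calls required p under 0.05 after Benjamini-Hochberg adjustment over the 12998 genes, from the quasi-likelihood test of edgeR. With quizartinib in RPMI, 9 of the 9 tested members were called against vehicle, 5 higher and 4 lower, beside 79.3% of all genes (40.1% higher and 39.2% lower). With quizartinib in hBMSC-CM, 7 were called against vehicle in that medium, 3 higher and 4 lower, beside 67.1% (33.4% higher and 33.7% lower). Between the media, 8 were called in the quizartinib-treated cells, 5 higher and 3 lower in hBMSC-CM, beside 69.8% (35.5% and 34.3%). In vehicle-treated cells, 6 were called between the media, 4 higher and 2 lower, beside 32.1% (16.6% and 15.5%). Quizartinib-treated cells in hBMSC-CM differed from vehicle-treated cells in RPMI at 8 members, 6 higher and 2 lower, beside 62.1% (30.6% and 31.6%). For the interaction, the quizartinib effect in hBMSC-CM minus that in RPMI, 5 members were called, 2 higher and 3 lower, beside 45.2% (26.1% and 19.2%). The median log2 fold change of the 9 members lay between -0.07 and 0.33 over these 6 contrasts, and that of all genes between -0.00 and 0.02. Without sign, the median was 0.36 for members and 0.48 for all genes with the drug in RPMI. In hBMSC-CM these were 0.24 and 0.30. Between the media they were 0.33 and 0.32 under the drug, and 0.27 and 0.14 with vehicle. Treated cells in hBMSC-CM against untreated cells in RPMI gave 0.45 and 0.25, and the interaction 0.41 and 0.25. Scaling by library size alone raised the share of higher genes among those called from 49.8% to 62.8% for the drug in hBMSC-CM and from 49.2% to 62.1% for treated cells in hBMSC-CM against untreated cells in RPMI. The comparisons share groups and are not independent of each other.

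MYC, the activating partner of MAX, fell most in RPMI and stayed high in hBMSC-CM. Vehicle-treated cells in RPMI held 440.5, 413 and 435 CPM in replicates 1, 2 and 3, and quizartinib-treated cells held 47.3, 51.9 and 52.5 CPM. In hBMSC-CM the vehicle libraries held 787, 775 and 800.1 CPM and the quizartinib libraries 583, 585 and 616 CPM. No group overlapped another, and the order from low to high was quizartinib in RPMI, vehicle in RPMI, quizartinib in hBMSC-CM and vehicle in hBMSC-CM. Quizartinib lowered MYC mRNA 8.50-fold in RPMI (log2 fold change -3.09 ± 0.05 SE, adjusted p = 3.09e-21), a larger size than 99.3% of tested genes. In hBMSC-CM the drug lowered it 1.32-fold (-0.40 ± 0.04, adjusted p = 8.41e-08). Under quizartinib, MYC was 11.8-fold higher in hBMSC-CM than in RPMI (3.56 ± 0.05, adjusted p = 1.56e-21), and with vehicle it was 1.83-fold higher (0.87 ± 0.04, adjusted p = 7.40e-12). As a share of the library, MYC mRNA was thus 1.38-fold higher in drug-treated cells in hBMSC-CM than in untreated cells in RPMI (0.47 ± 0.04, adjusted p = 1.16e-08).

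The paralog MYCL and the neighbour PVT1 did not share this range. MYCL, a paralog of MYC, was at 8.85 ± 0.80 CPM (SD, n = 3) with vehicle in RPMI and at 12.4 ± 1.0, 13.1 ± 0.3 and 13.2 ± 0.7 CPM with quizartinib in RPMI, vehicle in hBMSC-CM and quizartinib in hBMSC-CM. MYCL thus rose 1.39-fold with the drug in RPMI (adjusted p = 4.70e-05), while a log2 fold change of 0.02 was found in hBMSC-CM (adjusted p = 0.829). MYCN had 0 counts in every library, and MLXIPL, the paralog of MLXIP, had at most 10 counts. PVT1, the noncoding RNA gene next to MYC, kept between 17.3 ± 0.6 and 21.7 ± 1.2 CPM (SD, n = 3) in all groups. Its log2 fold change with quizartinib was -0.17 ± 0.07 (SE) in RPMI (adjusted p = 0.0350) and 0.21 ± 0.07 in hBMSC-CM (adjusted p = 0.0119). Other transcripts listed at the MYC locus were too low to test. CASC11 had at most 2 counts in a library, POU5F1B, CASC19 and PCAT1 at most 1, and CASC8 had 0. CCAT1 was not found by that symbol.

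**Figure D1:**
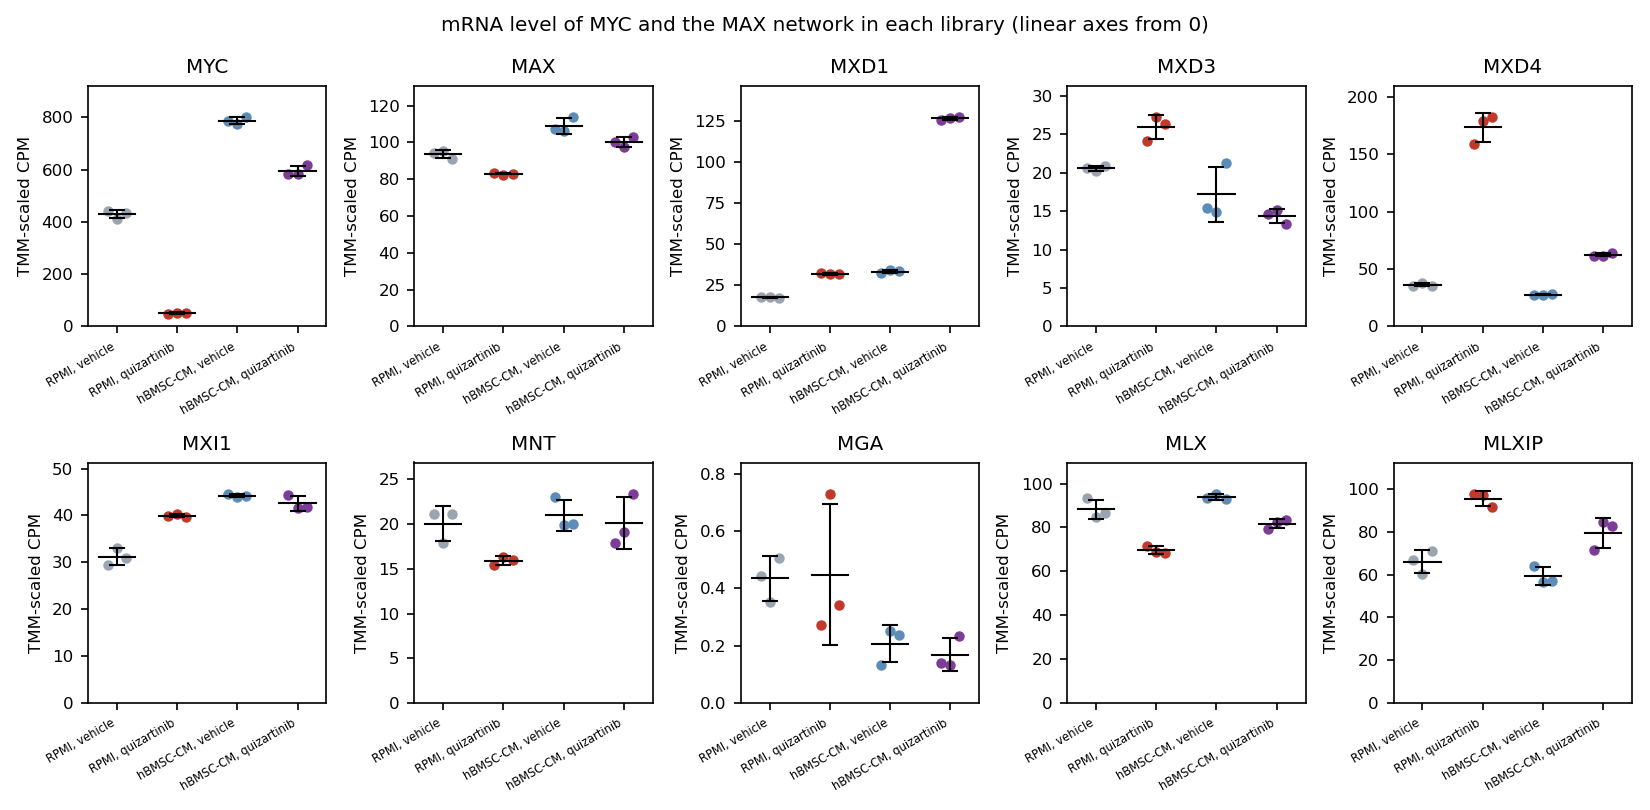
TMM-scaled CPM (vertical axes, linear, from 0) of the 10 genes in the 4 groups (horizontal axes). Points are libraries, the long bar is the mean and the whisker 1 SD of 3 replicates. MYC is lowest with quizartinib in RPMI, MXD4 is highest there, and MXD1 is highest with quizartinib in hBMSC-CM.

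MAX, the common partner of MYC and its antagonists, moved little. It was at 94.5, 95.5 and 91.1 CPM with vehicle in RPMI and at 83.3, 82.6 and 83.1 CPM with quizartinib. In hBMSC-CM it was at 107, 106 and 114 CPM with vehicle and at 100.5, 97.6 and 103 CPM with quizartinib. The 4 groups kept the order seen for MYC without overlap, but the highest group mean was only 1.31-fold above the lowest, where the same ratio for MYC was 15.6. The log2 fold change with quizartinib was -0.18 ± 0.04 (SE) in RPMI (adjusted p = 0.000668) and -0.12 ± 0.04 in hBMSC-CM (adjusted p = 0.0169). The latter call was lost without vehicle replicate 3 or quizartinib replicate 2 in hBMSC-CM (adjusted p = 0.0854 and 0.0845). Scaling by library size alone gave -0.09 (adjusted p = 0.0647) and -0.01 (adjusted p = 0.796), and upper-quartile scaling -0.07 (adjusted p = 0.108) and -0.03 (adjusted p = 0.467), so that no drop of MAX is called under either. Exons of MAX (chr14:65006174-65102695, minus strand) share 13.1% of their bases with FNTB on the other strand, and whether strand was used in counting is not given in the sources used here.

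MXD1, an antagonist of MYC that rises as myeloid cells mature, was highest where the drug and the conditioned medium were combined. It was at 18.1, 17.6 and 17.3 CPM with vehicle in RPMI and at 32.8, 32.1 and 31.6 CPM with quizartinib in RPMI. In hBMSC-CM it was at 32.3, 34.6 and 33.5 CPM with vehicle and at 126, 127 and 127 CPM with quizartinib. The drug alone and the conditioned medium alone gave levels that overlapped, and the combination stood apart from both. Quizartinib raised MXD1 1.82-fold in RPMI (log2 fold change 0.86 ± 0.05 SE, adjusted p = 1.95e-12) and 3.80-fold in hBMSC-CM (1.92 ± 0.05, adjusted p = 1.80e-17). The interaction was 1.06 ± 0.07 (adjusted p = 7.20e-11). Against untreated cells in RPMI, the share of MXD1 mRNA in treated cells in hBMSC-CM was 7.16-fold higher (adjusted p = 2.65e-20). MXD1 and MYC were thus both above that reference there. The gene lies at chr2:69897688-69942945 on the plus strand.

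MXD4, another MAD-type antagonist, was the member that rose most with the drug in RPMI. It was at 35.7, 37.9 and 35.4 CPM with vehicle and at 159, 179 and 182 CPM with quizartinib in RPMI. With hBMSC-CM the level was 27.2, 27.3 and 27.9 CPM with vehicle and at 61.8, 61.8 and 63.7 CPM with quizartinib. All 4 groups stood apart, in an order that differed from that of MYC: vehicle in hBMSC-CM was lowest, then vehicle in RPMI, quizartinib in hBMSC-CM and quizartinib in RPMI. The rise was 4.77-fold in RPMI (2.25 ± 0.05 on the log2 scale, adjusted p = 2.90e-19) and 2.27-fold in hBMSC-CM (1.18 ± 0.06, adjusted p = 2.01e-13). The interaction was -1.07 ± 0.08 (adjusted p = 3.05e-10), opposite in sign to that of MXD1. Under quizartinib MXD4 was 2.78-fold lower in hBMSC-CM than in RPMI (adjusted p = 3.44e-16). The gene, whose promoter window with an E-box is shown above, lies at chr4:2247432-2262109 on the minus strand.

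MXI1 (also MXD2) and MXD3, which is known to act in proliferating cells, changed less. MXI1 was at 29.4, 33.1 and 31.0 CPM with vehicle in RPMI and between 39.8 and 44.6 CPM in every other library. The drug raised it 1.28-fold in RPMI (log2 fold change 0.36 ± 0.05 SE, adjusted p = 3.24e-06), the conditioned medium raised it 1.42-fold in vehicle-treated cells (0.51 ± 0.05, adjusted p = 4.10e-07), and in hBMSC-CM the drug gave -0.05 ± 0.05 (adjusted p = 0.375). Its interaction was -0.41 ± 0.08 (adjusted p = 0.000129). MXD3 was at 20.6, 20.2 and 20.8 CPM with vehicle in RPMI, at 24.2, 27.2 and 26.3 CPM with quizartinib in RPMI and at 14.7, 15.1 and 13.3 CPM with quizartinib in hBMSC-CM. Its vehicle libraries in hBMSC-CM were at 15.3, 14.9 and 21.3 CPM, so that replicate 3 lay above vehicle in RPMI and below quizartinib in RPMI. The range of that group overlapped those of vehicle in RPMI and of quizartinib in hBMSC-CM. MXD3 rose with the drug in RPMI (0.33 ± 0.09, adjusted p = 0.00262) and under the drug it was lower in the conditioned medium (-0.85 ± 0.10, adjusted p = 1.39e-07), with an interaction of -0.58 ± 0.14 (adjusted p = 0.00188).

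The call of a lower MXD3 with quizartinib in hBMSC-CM (-0.24 ± 0.10 SE, adjusted p = 0.0417) did not hold without vehicle replicate 3 in that medium, where the log2 fold change was -0.07 (adjusted p = 0.455). Without quizartinib replicate 1 or 3 the call was also lost, with the value at -0.26 and -0.19 (adjusted p = 0.0600 and 0.146). Scaling by library size alone gave -0.14 (adjusted p = 0.236). Between the media with vehicle, MXD3 gave -0.27 ± 0.10 (adjusted p = 0.0410). Without any 1 of the 3 vehicle libraries in RPMI the value stayed between -0.28 and -0.25 but was not called (adjusted p from 0.0693 to 0.0997), and without vehicle replicate 1 or 2 in hBMSC-CM it was -0.18 (adjusted p = 0.210 and 0.205). MXD3 exons (chr5:177301461-177312757, minus strand) share 24.2% of their bases with PRELID1 on the other strand and 19.5% with RAB24 on the same strand. The part of these neighbours in the counts of MXD3 was not tested.

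MNT, the antagonist that is expressed widely, was at 21.2, 17.8 and 21.2 CPM with vehicle in RPMI and at 15.4, 16.4 and 16.0 CPM with quizartinib. With hBMSC-CM MNT was at 23.0, 19.9 and 19.98 CPM with vehicle and at 17.9, 19.1 and 23.4 CPM with quizartinib. Quizartinib in RPMI was below every other group, and the other 3 overlapped. MNT fell with the drug in RPMI (-0.33 ± 0.09 SE on the log2 scale, adjusted p = 0.00276), in the direction of MYC rather than of MXD1 and MXD4, and gave -0.07 ± 0.09 in hBMSC-CM (adjusted p = 0.483). Its interaction of 0.26 ± 0.13 was not called (adjusted p = 0.115). Exons of MNT share 12.2% of their bases with a long noncoding RNA gene on the other strand, whose part in the counts was not tested. MGA, the largest of the network's proteins, had 3 to 21 counts in a library and 94 in all, a mean of 0.314 CPM. The counts were 9 to 13 and 7 to 21 with vehicle and quizartinib in RPMI and 4 to 5 and 3 to 5 in hBMSC-CM. Without a filter, MGA gave -1.38 ± 0.50 (SE) between hBMSC-CM and RPMI under the drug (adjusted p = 0.0186), and with so few counts this value is not described as a change.

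MLX and MLXIP form the arm of the network that senses glucose, and they moved in opposite directions. MLX was at 93.2, 84.6 and 86.7 CPM with vehicle in RPMI and at 71.8, 69.0 and 68.4 CPM with quizartinib. MLX in hBMSC-CM was at 93.4, 95.3 and 92.9 CPM with vehicle and at 79.4, 82.4 and 83.2 CPM with quizartinib. The drug lowered MLX in RPMI (-0.34 ± 0.04 SE on the log2 scale, adjusted p = 5.20e-07) and in hBMSC-CM (-0.20 ± 0.04, adjusted p = 0.000448), and the drug and vehicle libraries did not overlap in either medium. Scaling by library size alone gave -0.10 in hBMSC-CM, which was not called (adjusted p = 0.0601). MLXIP was at 66.8, 60.6 and 71.0 CPM with vehicle and at 97.8, 97.4 and 91.6 CPM with quizartinib in RPMI. In hBMSC-CM it was at 64.2, 56.6 and 57.1 CPM with vehicle and at 71.5, 84.7 and 82.6 CPM with quizartinib. The drug raised MLXIP 1.45-fold in RPMI (adjusted p = 1.78e-07) and 1.34-fold in hBMSC-CM (adjusted p = 1.27e-05), without overlap of drug and vehicle libraries. The interactions of MLX (0.14 ± 0.06, adjusted p = 0.0777) and MLXIP (-0.12 ± 0.09, adjusted p = 0.329) were not called. Exons of MLX share 18.2% of their bases with PSMC3IP on the other strand.

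**Figure D2:**
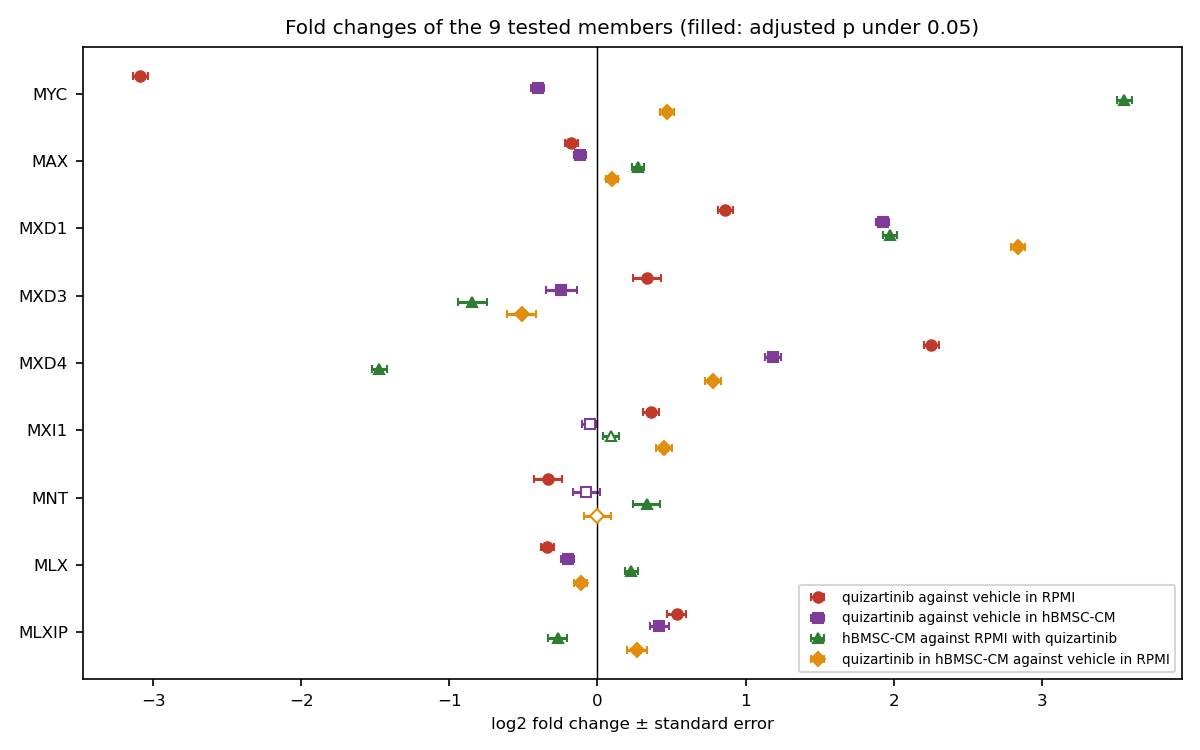
Log2 fold change with its standard error (horizontal axis) of the 9 tested members in 4 contrasts, with filled symbols for called genes. MYC reaches -3.09 with quizartinib in RPMI and 3.56 between the media under quizartinib, MXD1 lies above 0 in all 4 contrasts, and MAX, MNT and MLX stay within 0.34 of 0.

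The balance between MYC and its competitors for MAX was compared within each library, per kilobase of annotated exon. MYC made up 77.8 ± 0.8% (SD, n = 3) of the length-scaled mRNA of the 7 MAX partners (MYC, MXD1, MXD3, MXD4, MXI1, MNT and MGA) with vehicle in RPMI and 15.7 ± 0.1% with quizartinib. In hBMSC-CM the share was 85.0 ± 0.2% with vehicle and 70.1 ± 0.5% with quizartinib. The groups did not overlap, with libraries at 77.0 to 78.4%, 15.6 to 15.8%, 84.7 to 85.1% and 69.7 to 70.7%. The exact permutation test, two-sided, gave p = 0.1 for each of the 5 pairs of groups compared, the smallest that 3 against 3 libraries allow, and adjusted values of 0.1. In these libraries a fall in MYC and a rise in the antagonists both entered the share. The paralog MYCL, whose levels are given above, was counted neither in the share nor with MYC in the ratio below. MGA, with 3 to 21 counts in a library, held at most 0.067% of the summed mRNA. Whether reads of MGA were lost before counting cannot be seen here, so the share and the ratio hold almost nothing of it.

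The summed antagonists were about as high in both drug groups, but their makeup differed. With quizartinib they came to 44.4 ± 2.1 CPM per kb (SD, n = 3) in RPMI and 41.6 ± 0.3 in hBMSC-CM, and with vehicle to 20.01 ± 0.20 and 22.8 ± 0.7. MXD4 held 56.8 ± 1.5% of the antagonist mRNA with quizartinib in RPMI and 21.8 ± 0.3% with quizartinib in hBMSC-CM. MXD1 held 11.4 ± 0.8% and 48.0 ± 0.3% in the same groups. With vehicle, MXD4 held 26.4 ± 0.8% in RPMI and 17.6 ± 0.3% in hBMSC-CM, and MXD1 13.9 ± 0.4% and 23.1 ± 1.1%. The drug groups thus had a similar sum, led by MXD4 in RPMI and by MXD1 in hBMSC-CM. The ratio of MYC to the summed antagonists was 3.51 ± 0.15 with vehicle and 0.186 ± 0.002 with quizartinib in RPMI. In hBMSC-CM it was 5.66 ± 0.09 and 2.34 ± 0.06. These are mRNA ratios and carry no measure of protein.

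**Figure D3:**
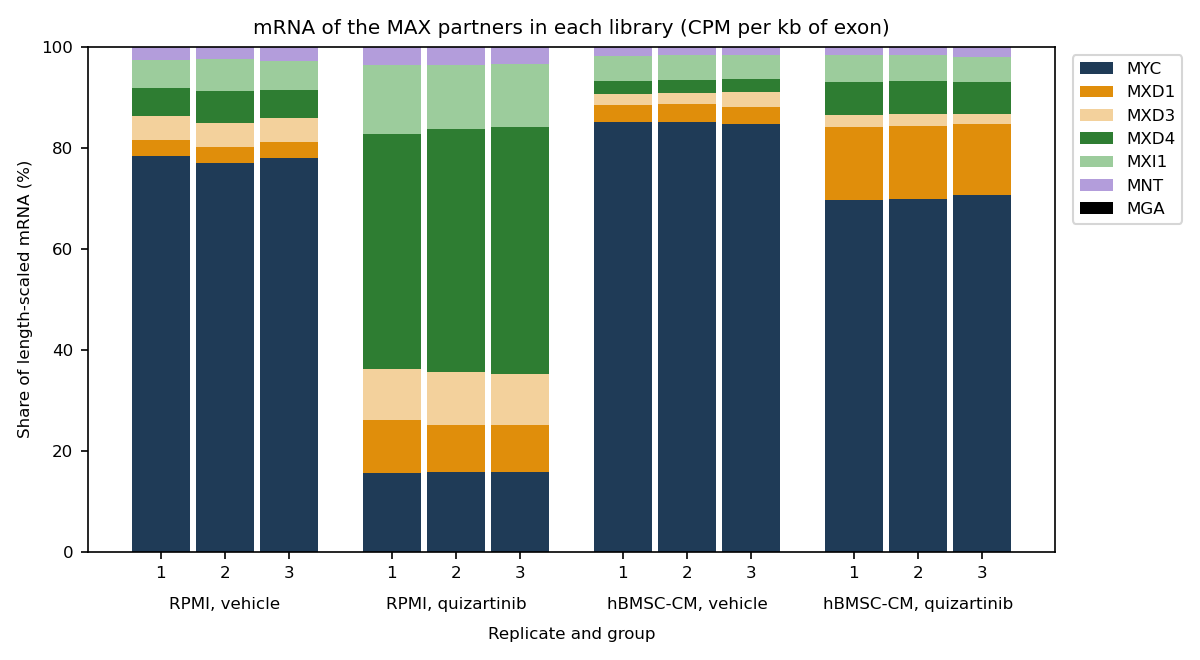
Stacked share (%, vertical axis) of the length-scaled mRNA of the 7 MAX partners in each of the 12 libraries (horizontal axis, replicates by group). MYC fills 15.6 to 15.8% with quizartinib in RPMI and at least 69.7% in every other group, and the largest part of the rest is MXD4 in the former and MXD1 with quizartinib in hBMSC-CM.

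Of the genes known to be induced by MYC through E-boxes, 25 were tested, from a list written from general knowledge with earlier results of these data known. With quizartinib, 25 of 25 were lower in RPMI (median log2 fold change -1.77, all genes 0.02), beside 39.2% of all genes. In hBMSC-CM 25 of 25 were lower (median -0.64, all genes 0.01), beside 33.7%. Under the drug, 23 were higher with conditioned medium and none lower (median 1.33), and SHMT2 and PTMA were not called. NME1, a nucleotide kinase, fell from 106 ± 4 to 14.6 ± 0.4 CPM (SD, n = 3) in RPMI and from 128 ± 11 to 58.9 ± 3.7 CPM in hBMSC-CM. MYBBP1A, a nucleolar protein, fell 7.10-fold in RPMI (adjusted p = 2.48e-20) and 1.72-fold in hBMSC-CM (adjusted p = 1.48e-11). The interaction was called for 21 of the 25, all higher (median 1.03).

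The E-box targets did not follow MYC in the treated cells of hBMSC-CM when these were set against untreated cells in RPMI. MYC was 1.38-fold higher there, whereas 23 of the 25 targets were lower, 1 was higher and 1 was not called (median -0.46, all genes 0.01), beside 31.6% of all genes lower and 30.6% higher. The gene that was higher was CCND2, a G1 cyclin, at 239 ± 8 against 214 ± 2 CPM (SD, n = 3, 1.12-fold, adjusted p = 0.00236). The gene not called was POLR1B, a subunit of RNA polymerase I (log2 fold change -0.09 ± 0.04 SE, adjusted p = 0.0624). ODC1, the rate-limiting enzyme of polyamine synthesis, was 2.30-fold lower (adjusted p = 1.80e-15), at 136 ± 6 against 312 ± 3 CPM. TFAP4, a transcription factor, was nearer to its level in untreated cells, at 37.9 ± 2.2 against 42.8 ± 0.5 CPM (adjusted p = 0.00813). The antagonist MXD1 was 7.16-fold higher in the same contrast. The study's blots of MOLM-13 showed c-MYC protein lost soon after quizartinib in either medium and regained later only with hBMSC-CM. The part of MXD1 or of MYC protein in the levels of the targets was not tested.

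**Figure D4:**
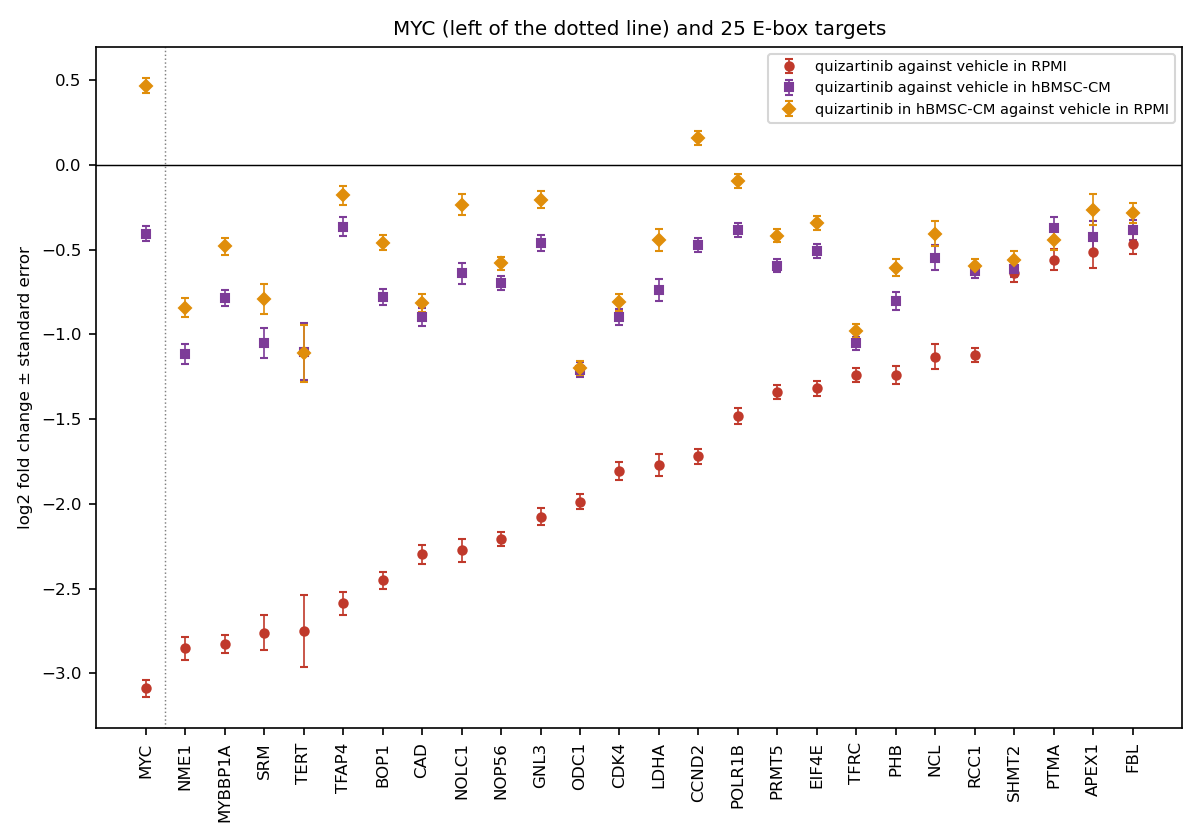
Log2 fold change with its standard error (vertical axis) of MYC and of 25 E-box targets (horizontal axis, ordered by the fold change in RPMI) for quizartinib against vehicle in RPMI, in hBMSC-CM, and for quizartinib in hBMSC-CM against vehicle in RPMI. All 25 targets lie below 0 in both drug contrasts, and in the latter contrast MYC lies at 0.47 while only CCND2 among the targets lies above 0.

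Of 11 tested genes known to be repressed by MYC, 7 were higher and 1 lower with quizartinib in RPMI (median log2 fold change 0.40), beside 40.1% and 39.2% of all genes. In hBMSC-CM 6 were higher and 1 lower, beside 33.4% and 33.7%. There were 3 higher and 6 lower in hBMSC-CM than in RPMI under the drug (median -0.34), beside 35.5% and 34.3%. The called share of the list was near that of all genes in the first 2 contrasts. BTG2, an antiproliferative factor, rose from 25.1 ± 0.5 to 113 ± 4 CPM (SD, n = 3) in RPMI and from 17.2 ± 0.4 to 34.4 ± 0.7 CPM in hBMSC-CM. CEBPA, the myeloid transcription factor, went the other way and fell from 222 ± 6 to 168 ± 12 CPM in RPMI (adjusted p = 3.06e-07).

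Of the 5 targets of MLXIP and MLX, 3 were called higher and 1 lower with quizartinib in each medium, beside 79.3% of all genes called in RPMI and 67.1% in hBMSC-CM. TXNIP, which limits glucose uptake, rose 3.52-fold with quizartinib in RPMI (adjusted p = 1.35e-18) and 2.14-fold in hBMSC-CM (adjusted p = 3.77e-14). ARRDC3 rose 2.11-fold and 1.87-fold. ARRDC4, the other gene called higher, averaged 1.74 ± 0.27 CPM (SD, n = 3) in the drug group of RPMI and 1.38 ± 0.12 CPM in that of hBMSC-CM, against 0.410 and 0.602 CPM with vehicle, so it passed the filter only through the drug groups and its call is no support. KLF10 fell by 0.49 and 0.42 on the log2 scale, and ARRDC2 gave 0.04 and 0.07 and was not called. Under the drug TXNIP was lower with conditioned medium than without (-0.73 ± 0.05 SE, adjusted p = 7.34e-12). MLXIP was also lower, by a smaller amount (-0.27 ± 0.06, adjusted p = 0.000976), while MLX was higher (0.23 ± 0.04, adjusted p = 0.000135).

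Of 17 activator partners of MYC, 8 were lower and 6 higher with quizartinib in RPMI (median -0.12), near the shares of all genes (39.2% lower and 40.1% higher). In hBMSC-CM 11 were lower and 5 higher, beside 33.7% and 33.4%. The histone acetyltransferase KAT2A fell from 49.6 ± 1.5 to 16.1 ± 0.4 CPM (SD, n = 3) in RPMI, and WDR5, which helps MYC onto chromatin, fell from 111 ± 1 to 36.5 ± 0.5 CPM. The acetyltransferase CREBBP rose 1.96-fold in RPMI (adjusted p = 3.14e-10). Of 16 genes of the SIN3 and NCOR corepressors used by the MXD proteins, 7 were lower and 6 higher in RPMI, again near the shares of all genes. ARID4A, a SIN3 subunit, rose 1.93-fold in RPMI and 1.42-fold in hBMSC-CM.

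Of 14 genes of the MGA complex, which also holds WDR5, HDAC1 and HDAC2 of the lists above, 10 were lower and 2 higher with the drug in RPMI (median -0.54), beside 39.2% and 40.1% of all genes, and 8 lower and none higher in hBMSC-CM, beside 33.7% and 33.4%. E2F6 went from 23.1 ± 0.4 to 8.16 ± 0.33 CPM (SD, n = 3) and TFDP1, its dimer partner, fell 3.22-fold (adjusted p = 6.46e-19) in RPMI. Of 18 genes that control MYC protein turnover, 11 were lower and 4 higher in RPMI (median -0.47) and 11 lower and 1 higher in hBMSC-CM, beside the same shares of all genes. The called share of this list, both directions together, was near that of all genes (79.3% and 67.1%). SKP2, a ubiquitin ligase subunit for MYC, fell 3.11-fold in RPMI, and USP36, a deubiquitinase of MYC, fell from 54.8 ± 3.3 to 18.8 ± 0.9 CPM. FBXW7, the ligase subunit best known for MYC degradation, was not called with the drug in either medium. Of 7 partners in repression by MYC, 3 rose and 3 fell in RPMI, near the shares of all genes. MIZ1 (ZBTB17) rose 1.49-fold (adjusted p = 8.32e-10) and TOPBP1 fell 2.09-fold (adjusted p = 1.84e-15).

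The genes most like MYC over the 12 libraries were sought by Pearson's r of log2 CPM among the 9279 other genes that averaged 10 CPM or more. The libraries fall into 4 groups, so r describes shared group means and says nothing of control. The highest were MEX3A (r = 0.996), THBD (0.996), TLR2 (0.995), CCND2 (0.994) and ASB13 (0.994). MEX3A, an RNA-binding protein, was at 14.4 ± 0.5, 2.71 ± 0.25, 22.7 ± 2.0 and 16.9 ± 0.4 CPM (SD, n = 3) with vehicle in RPMI, quizartinib in RPMI, vehicle in hBMSC-CM and quizartinib in hBMSC-CM. Like MYC it was higher in treated cells of hBMSC-CM than in untreated cells of RPMI (log2 fold change 0.23 ± 0.08 SE, adjusted p = 0.0114). The gene most like MXD1 was SLC44A1, a choline transporter (r = 0.996), and the gene most like MXD4 was ABHD12, a lipid hydrolase (r = 0.998). For the others these were DVL1 for MAX (0.982), MGST3 for MXD3 (0.981), CD38 for MXI1 (0.933), RRBP1 for MNT (0.924), CHID1 for MLX (0.985) and WDFY2 for MLXIP (0.988).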

How the data were processed

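Poly-A-selected RNA of 12 libraries was sequenced from both ends. The authors trimmed adapters, removed short reads, aligned to hg38 with STAR 2.6.0a, took its gene counts, merged identifiers of a shared gene name, and deposited the raw counts as whole numbers, not normalized. Whether strand was used is not given in the sources used here. Groups and replicates were taken from the labels. Genes with a mean raw count and a mean CPM of at least 1 were kept, scaled by TMM, and tested with edgeR 4.0.16 (quasi-likelihood, R 4.3.3) in 1 model with 4 group means and 8 residual degrees of freedom, p-values two-sided and Benjamini-Hochberg adjusted over all tested genes. The study used limma; limma 3.58.1 and DESeq2 1.42.0 were alternatives. Log2 CPM used a prior count of 2. Coordinates, exon lengths and overlaps came from a GENCODE annotation of GRCh38, the build of the files in another release.

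The members, gene lists, tests and alternatives were chosen with earlier results of these data known. Named in the text were the members, up to 3 called genes per list, direction and contrast with a mean CPM of at least 10, genes of lists of up to 7 and the genes most like a member; SHMT2, PTMA, POLR1B and FBXW7 were named after their values were seen. Library totals were 19966546 to 31546104 counts. In 12 replicate pairs the chi-square per gene was 2.66 to 10.5, so no library was counted as a repeat of another. The limit at a count of 0 was 0.0951 to 0.150 CPM, counting error only. MYC promoter sequence was not used here.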

Additional observations from a re-analysis of the deposited data

Results flagged for a closer look

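For 5 members the effect of quizartinib differed between RPMI and hBMSC-CM by the interaction term of edgeR's quasi-likelihood test, beside 45.2% of all tested genes. For MYC the interaction was 2.68 on the log2 scale, since the drug effect was -3.09 in RPMI and -0.40 in hBMSC-CM. For MXD1 it was 1.06, with drug effects of 0.86 and 1.92. MXD4 went the other way at -1.07, with 2.25 and 1.18. MXI1 gave -0.41, with 0.36 and -0.05, and MXD3 gave -0.58, with 0.33 and -0.24. MXD3 is the least certain of these, since its vehicle replicate 3 in hBMSC-CM was at 21.3 CPM and the others of that group at 15.3 and 14.9 CPM. No cause was tested.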

How the results depend on the processing

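Of 963 values of the tested members under the alternatives, 908 stayed on the same side of the threshold, 44 lost the call and 11 gained it. No value called in the main fit or under the alternative reversed its direction. Values called in neither could change sign, as for MNT with quizartinib in hBMSC-CM (from -0.19 to 0.03). With library size only, 4 members were called for quizartinib against vehicle in hBMSC-CM instead of 7. The calls lost concerned MAX, MXD3 and MLX, all with log2 fold changes under 0.35 in size. Treated cells in hBMSC-CM against untreated cells in RPMI gave 0.10 for MAX (adjusted p = 0.0444), lost without any 1 of the 3 vehicle libraries or quizartinib replicates 1 and 3 (adjusted p from 0.0504 to 0.163). They gave -0.11 for MLX (adjusted p = 0.0324), lost without vehicle replicate 1 or quizartinib replicates 1 and 2 (-0.12 to -0.07, adjusted p from 0.0567 to 0.224), and with library size only (-0.03, adjusted p = 0.635) or upper-quartile factors (-0.06, adjusted p = 0.262). The call of MAX in that contrast was also lost with DESeq2's size factors (adjusted p = 0.0693), the DESeq2 Wald test (adjusted p = 0.103) or no filter (adjusted p = 0.382). With the replicate block, MAX in that contrast gave 0.10 (adjusted p = 0.0588), and the block changed no other call of a member. Same-numbered libraries did not deviate together (18 correlations from -0.227 to 0.098), so the numbers were not taken as pairs. The MNT and MLX interactions were called without a filter (0.33, adjusted p = 0.0160, and 0.21, adjusted p = 0.0316). The former was also called without vehicle replicate 2 in RPMI or replicate 1 of either group in hBMSC-CM (adjusted p from 0.0363 to 0.0456), the latter without vehicle replicate 2 in RPMI (adjusted p = 0.0462). Between the media with vehicle, MLXIP was called without vehicle replicate 2 in RPMI or 1 in hBMSC-CM (adjusted p = 0.0307 and 0.0277) and MLX without vehicle replicate 1 in RPMI (adjusted p = 0.0348). For MLXIP and MLX targets with vehicle between the media, 1 gene was called instead of 2 with library size only, upper-quartile factors, no filter, a threshold of 0.01 or libraries left out in turn (1 to 2). For their interaction it was 2 instead of 1 with DESeq2's size factors, upper-quartile factors, a mean CPM of at least 10 or libraries left out (1 to 2). For repressed genes, the interaction count was 4 instead of 7 at a threshold of 0.01. The share of MYC without division by length was 14.9%, 84.6% and 69.1% for quizartinib in RPMI and for vehicle and quizartinib in hBMSC-CM, and with the longest transcript 72.6% for the last. Spearman's rho shared 0 of the 5 genes most like MYC. Upper-quartile factors moved the median of all genes by 0.10 for quizartinib in RPMI and library size by 0.10 in hBMSC-CM. The share of higher genes among those called then moved from 49.8% to 62.8% for quizartinib in hBMSC-CM, from 49.2% to 62.1% for its treated cells against untreated RPMI, and without a filter from 57.6% to 70.6% for the interaction. Other causes were not tested. MGA had 3 to 21 counts in a library, while the smallest library total was 19966546 counts. Whether its reads or identifiers were lost before the counts were made cannot be seen here.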
